A study of Homo sapiens with 14 samples.

Results

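BT-549 is a breast cancer cell line labelled as triple-negative, a class of tumours defined by the absence of oestrogen receptor, progesterone receptor and HER2. It was compared here with NCI-H1395, labelled as lung adenocarcinoma cells, and with AGS, labelled as a gastric cancer line, across all genes of 1 table of RNA sequencing counts. The comparison takes 9 of the 14 libraries of the series, 3 from each line, and asks in which genes the lines differ whatever siRNA the cells had received. In each line, 1 library came from cells given a control siRNA and 2, numbered 1 and 2, from cells given an siRNA against ADAR, which encodes the RNA editing enzyme ADAR1. No untreated cells were among these libraries, so every value was measured in cells carrying an siRNA. The remaining libraries came from MDA-MB-231, a second line labelled as triple-negative, of which the 3 siRNA libraries are used below for reference. Each tissue is represented by 1 line, so the tests concern these lines and not breast, lung or stomach cancers in general, and nothing in the labels states that the libraries of a line came from separate cultures. Per line, values are given in the order control siRNA, ADAR siRNA 1 and ADAR siRNA 2, in CPM, a gene's share of the library's counts on a common scale, adjusted between libraries with TMM factors, and genome positions are on hg38.

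Cancer lines keep part of the expression programme of the tissue they came from. Epithelial cells hold together through E-cadherin, desmosomes, tight junctions and keratin filaments, under regulators such as GRHL2, ELF3 and the splicing factor ESRP1. Cells in a mesenchymal state instead build vimentin filaments and a collagen matrix, and carry transcription factors of the ZEB, SNAI and TWIST families, several of which repress epithelial genes through E-box sequences. BT-549 is widely used as a mesenchymal, basal B type breast cancer line.

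Total counts of the 9 libraries ranged from 14858945 to 23378934. Lineage markers were checked first against the labels. The gastric label was matched by its markers. HNF4A, a transcription factor of gut and liver epithelium, was at 85.6, 87.8 and 98.7 CPM in the AGS libraries and at or below 0.114 CPM in the other 6. The lung label was not. NKX2-1, a transcription factor used as a marker of lung adenocarcinoma, was at 0.107, 0.173 and 0 CPM in the NCI-H1395 libraries. SFTPB, a surfactant protein, was at 0, 0.216 and 0.237 CPM in them, and 16 of 20 lung genes were too low to be tested in any of the lines. The NCI-H1395 libraries held 2385, 1462 and 2492 CPM of vimentin, a mesenchymal marker, and 0.321, 0.561 and 0.475 CPM of EPCAM, an epithelial one. Not every lung or epithelial marker was absent from them. The lung genes ABCA3 and LAMP3 and the keratins KRT8 and KRT18 were lower in BT-549 than in both NCI-H1395 and AGS. The summed level of the lung list was 101 to 127 CPM in NCI-H1395, 46.1 to 57.8 CPM in BT-549 and 133 to 159 CPM in AGS. In BT-549 the oestrogen receptor gene ESR1 was at 0, 0 and 0.0457 CPM and the progesterone receptor gene PGR at 0 CPM in all 3 libraries, while ERBB2, which encodes HER2, was at 98.6, 121 and 133 CPM, against 62.7, 71.3 and 72.5 CPM in NCI-H1395 and 131, 88.7 and 180.3 CPM in AGS. The T cell gene CD3E was at 0 in all 9 libraries, and PTPRC, the common leukocyte marker, was at 0.0998, 0 and 0 CPM in BT-549 and at 0 in the other 6.

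**Figure D1:**
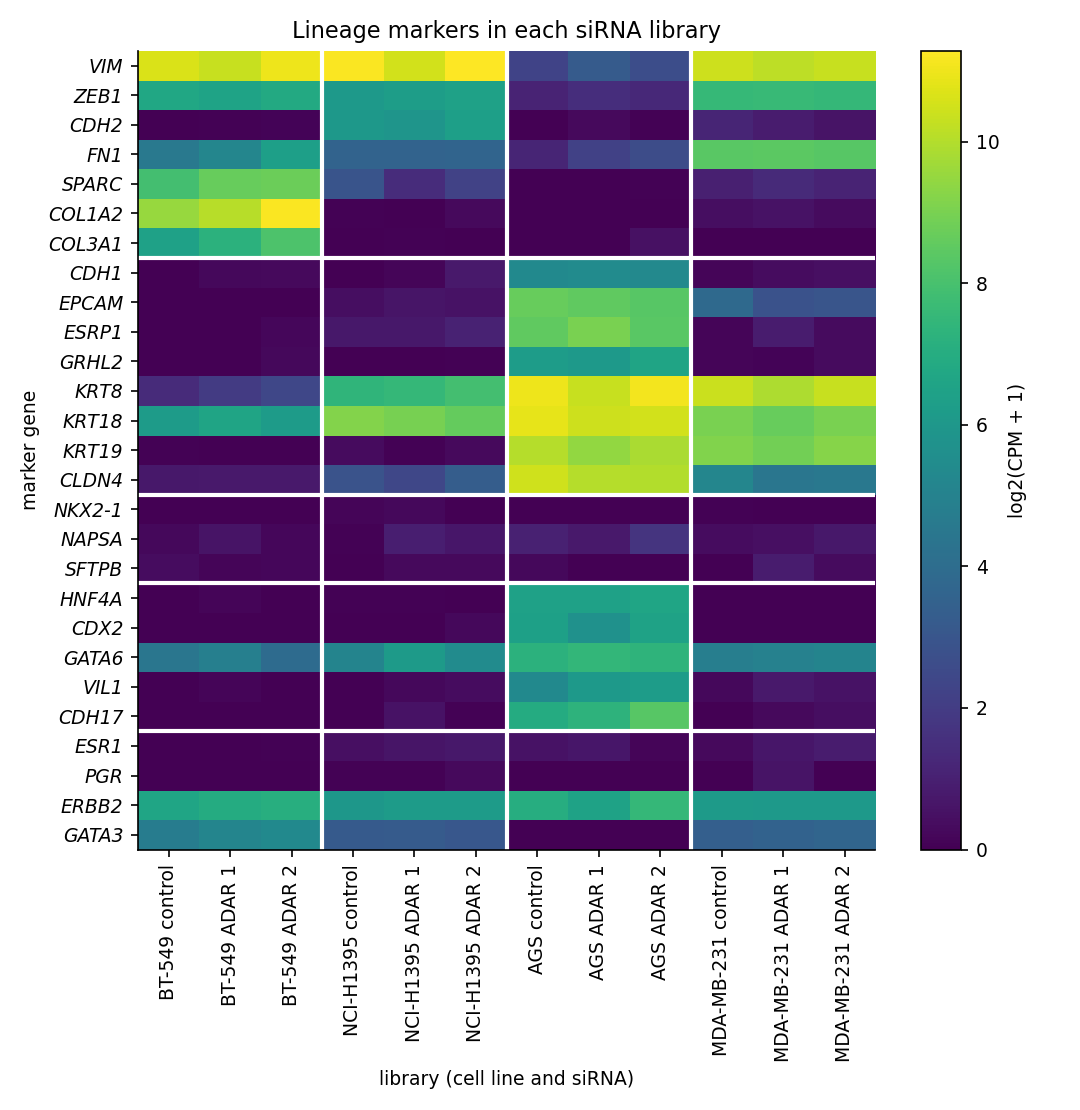
Expression of lineage markers, in log2(CPM + 1), in the 3 siRNA libraries of each line, with white lines between lines and between mesenchymal, epithelial, lung, gut and breast genes. BT-549 and NCI-H1395 share high VIM and ZEB1 and low CDH1, EPCAM, ESRP1 and KRT19, whereas KRT8 and KRT18 are higher in NCI-H1395. The collagen genes COL1A2 and COL3A1 are high in BT-549 alone among the 4 lines, and no line shows NKX2-1.

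BT-549 differed from both lines in 3672 of 18197 genes tested. A gene was called higher in BT-549 when edgeR's quasi-likelihood test gave an adjusted p under 0.05 and a log2 fold change of at least 1 against NCI-H1395 and against AGS, and lower when both were at most -1. By this joint rule 1549 genes (8.51%) were higher and 2123 (11.7%) were lower. Of the genes called higher, 1531 had all 3 BT-549 libraries above all 6 others, and of those called lower, 1956 had all 3 below, where among all genes tested 18.6% lay wholly above and 16.5% wholly below. In the control siRNA libraries alone, with 1 library per line and no test, 1547 of the 1549 genes called higher were above both other lines and 1323 were at least 2-fold above both. Of the 2123 called lower, 2087 were below both in the control libraries and 1787 at least 2-fold below. Among all genes tested, 8.92% were at least 2-fold above and 12.8% at least 2-fold below both lines in the control libraries. For 65 of the genes called higher no read was counted in any of the 6 other libraries, and for 312 of the genes called lower none was counted in any BT-549 library.

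**Figure D2:**
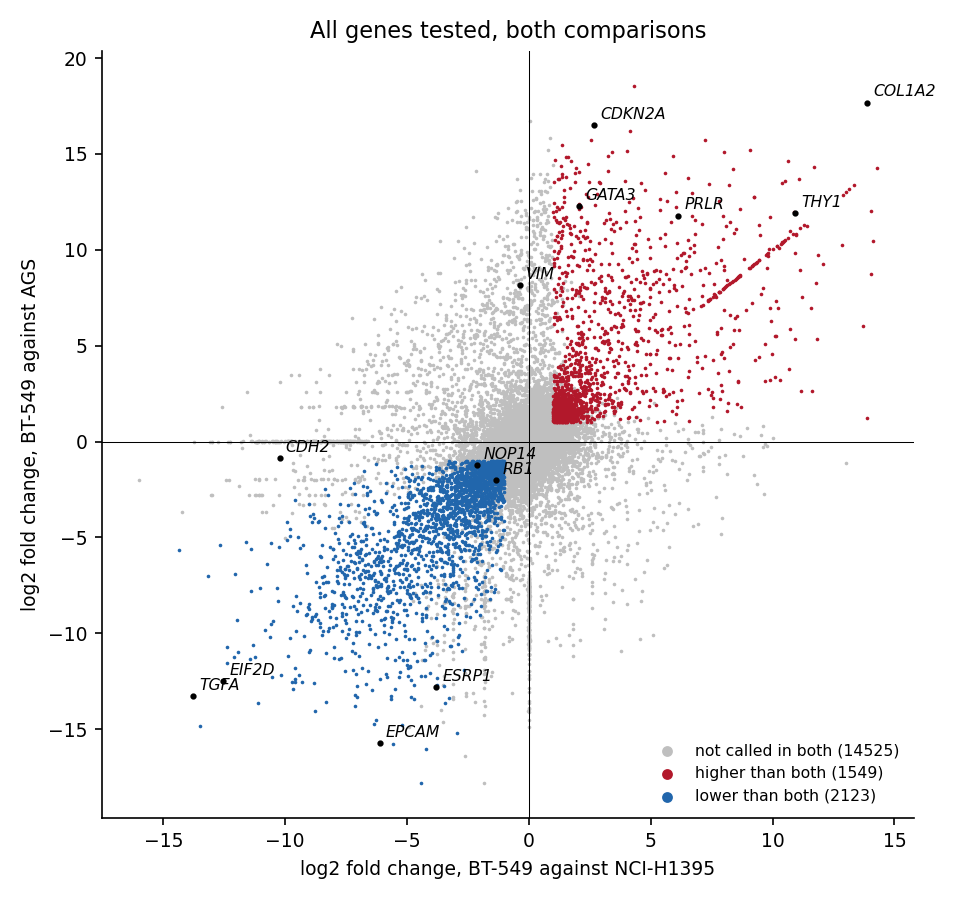
Log2 fold change of BT-549 against NCI-H1395 (horizontal axis) and against AGS (vertical axis) for the 18197 genes tested, with 1549 genes higher than both in red and 2123 lower than both in blue. VIM lies near 0 on the horizontal axis and at 8.14 on the vertical axis, whereas COL1A2 and THY1 lie far up and to the right.

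The pairwise comparisons differed in size. Against NCI-H1395, 2769 genes (15.2%) were higher and 4204 (23.1%) lower, and against AGS 3958 (21.8%) were higher and 4384 (24.1%) lower. Higher genes made up 39.7% of the calls against NCI-H1395, and 29.3% when libraries were scaled by their total counts, a scaling that moves the median of all genes by -0.24 on the log2 scale in that comparison and by -0.08 against AGS. Across the 12113 genes whose mean log2 CPM was 1 or more, Spearman's rho of BT-549 libraries with one another was 0.981 to 0.992. It was 0.791 to 0.826 with NCI-H1395, 0.662 to 0.689 with AGS, and 0.754 to 0.776 with MDA-MB-231, so BT-549 was no more like the other line labelled triple-negative than like NCI-H1395 (genes are not independent replicates, and no test is given). No gene had a line by siRNA interaction at an adjusted p under 0.05 (edgeR, 345 at an unadjusted p under 0.05), a test with 1 control library per line.

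The extracellular matrix had the largest share of genes higher in BT-549 than in both lines among 32 gene lists. Of 24 fibrillar collagens and matrix proteins, 21 were tested, 14 were higher and 1 was lower (8.51% and 11.7% of all genes tested), with median log2 differences of 3.54 against NCI-H1395 and 6.4 against AGS (medians of all genes tested, -0.06 and 0.00). COL1A2 (ENSG00000164692.19; chromosome 7, 94394895 to 94431227), which encodes an alpha chain of type I collagen, was at 744, 1086 and 2348 CPM in BT-549, 0.0535, 0 and 0.237 CPM in NCI-H1395 and 0 CPM in AGS. It was highest in ADAR siRNA library 2, and the lowest BT-549 library stood far above every other library. The log2 fold change against NCI-H1395 was 13.88 ± 0.61 (edgeR adjusted p = 2.32e-07), and BT-549 was at least 24387-fold higher than AGS, whose libraries held no read (adjusted p = 7.77e-08). COL1A1, which encodes the partner chain of type I collagen, was at 7.39, 10.9 and 125 CPM in BT-549, 1.18, 2.07 and 4.57 CPM in NCI-H1395 and 30, 27.8 and 45.3 CPM in AGS, and was not called by the joint rule. The type III collagen gene COL3A1 was at 87.6, 149.8 and 277 CPM, against 0, 0.0431 and 0 CPM in NCI-H1395 and 0, 0 and 0.401 CPM in AGS. COL5A1 and COL5A2, whose type V chains enter collagen fibrils, were at 98.7, 94.8 and 237 CPM and 83.8, 139 and 307 CPM in BT-549 and reached at most 0.401 and 2.46 CPM in the other lines. All 3 fibrillar genes were thus higher in each BT-549 library than in any of the 6 others, and each was highest in ADAR siRNA library 2.

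SPARC, a secreted protein that binds collagen, was at 243, 399 and 427 CPM in BT-549, 6.74, 1.73 and 3.68 CPM in NCI-H1395 and 0, 0 and 0.0573 CPM in AGS (log2 fold change against NCI-H1395 6.53 ± 0.47, edgeR adjusted p = 1.04e-06). FN1 (fibronectin), TNC (tenascin C), the thrombospondins THBS1 and THBS2, POSTN, MGP, BGN, TGFBI and COL12A1 were also called higher. FN1 was at 22.4, 35.2 and 81.8 CPM against 11.2, 11.2 and 11.6 CPM in NCI-H1395, 1.87 ± 0.38 higher on the log2 scale (edgeR adjusted p = 0.00141), and stood at 321 to 349 CPM in MDA-MB-231. The exception in direction was COL6A1, an alpha chain of type VI collagen, at 46.2, 24.1 and 47.2 CPM in BT-549, 241, 166 and 369 CPM in NCI-H1395 and 164, 93.8 and 203 CPM in AGS. In the control siRNA libraries alone, 13 of the 14 higher genes were at least 2-fold above both lines. The count of 14 ranged from 12 to 15 over the alternatives.

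Enzymes that process and crosslink collagen were split. Of 25 genes for matrix crosslinking and proteolysis, 10 were higher and 3 lower (8.51% and 11.7% of all genes tested). In the control libraries alone 10 and 2 of these were at least 2-fold apart from both lines. LOX, a lysyl oxidase that crosslinks collagen, was at 143, 212 and 266 CPM in BT-549, 6.31, 7.81 and 34.8 CPM in NCI-H1395 and 0.0602, 0.414 and 0.859 CPM in AGS, and its relative LOXL2 was at 1313, 1476 and 1651 CPM in BT-549, 331, 193 and 371 CPM in NCI-H1395 and 0.541, 0.178 and 1.37 CPM in AGS. For both genes all BT-549 libraries lay above the rest. PLOD1 and PLOD2, lysyl hydroxylases of procollagen, were called higher too, with log2 fold changes against NCI-H1395 of 2.01 ± 0.25 and 2.49 ± 0.27 (edgeR adjusted p = 3.51e-05 and 1.15e-05). ADAMTS2, the protease that removes the amino-terminal propeptide of fibrillar procollagens, was at 139, 142 and 328 CPM in BT-549, 0, 0.0431 and 0.178 CPM in NCI-H1395 and 0, 0 and 0.229 CPM in AGS, a log2 fold change of 11.43 ± 0.61 against NCI-H1395 (edgeR adjusted p = 1.01e-07). LOXL3 and LOXL4, other lysyl oxidase family members, were among the lower genes. TIMP3, a metalloproteinase inhibitor, was at 11.6, 15.5 and 19.7 CPM in BT-549 and at most 0.118 CPM in the 6 others, but at 705, 1002 and 1059 CPM in MDA-MB-231.

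Among 20 genes of the mesenchymal cytoskeleton and adhesion, 19 were tested, 8 were higher than in both lines and none lower (8.51% and 11.7% of all genes tested). With control siRNA alone, the same 8 were at least 2-fold above both. Vimentin (VIM) was not among them. It was at 1583, 1281 and 2029 CPM in BT-549, 2385, 1462 and 2492 CPM in NCI-H1395 and 3.79, 8.35 and 5.27 CPM in AGS, so BT-549 and NCI-H1395 overlapped (log2 fold change -0.38 ± 0.27, edgeR adjusted p = 0.261) and both lay far above AGS (8.14 ± 0.38 for BT-549 against AGS, edgeR adjusted p = 5.91e-09). THY1, a surface glycoprotein of fibroblasts, was at 139, 188 and 199 CPM in BT-549, 0.0535, 0.129 and 0.0593 CPM in NCI-H1395 and 0, 0.118 and 0 CPM in AGS. DDR2, a receptor kinase activated by fibrillar collagen, was at 141, 135 and 175 CPM in BT-549, 2.3, 2.07 and 6.88 CPM in NCI-H1395 and 1.8, 3.43 and 4.75 CPM in AGS. Its log2 fold changes were 5.41 ± 0.41 against NCI-H1395 and 5.56 ± 0.42 against AGS (edgeR adjusted p = 1.14e-06 and 4.51e-07). The caveolar genes CAV1 and CAVIN1 and the contractile genes ACTA2, MYL9 and TPM2 made up the remaining called genes with LOX. N-cadherin (CDH2), often used as a marker of this state, was at 0, 0.0572 and 0.0915 CPM in BT-549 and 63.7, 59 and 81.5 CPM in NCI-H1395. P-cadherin (CDH3), a cadherin of basal and myoepithelial cells, had the opposite pattern, with 114, 161 and 175 CPM in BT-549, 0, 0.129 and 0.356 CPM in NCI-H1395 and 12.2, 16.9 and 19.4 CPM in AGS.

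Markers of stromal and endothelial cells were read beside these genes. Of 10, 7 were tested, of which 1 was higher (TEK) and 1 lower (VWF), where 8.51% and 11.7% of all genes tested were. The log2 ratio of VWF against NCI-H1395 was 0.68 in the control libraries alone. CDH5 and DPT were at 0 in all BT-549 libraries. The summed level of the list was 2.84 to 7.36 CPM in BT-549, 4.92 to 15.7 CPM in NCI-H1395 and 18.6 to 38.5 CPM in AGS. Of 12 immune cell markers, 4 were tested, of which 1 was higher (CD14) and 1 lower (8.51% and 11.7% of all genes tested). PDGFRB, a defining receptor of fibroblasts and pericytes, was at 0, 0.286 and 0.64 CPM in BT-549, where COL1A2 was abundant, and FAP was at 1.35, 2.06 and 3.71 CPM.

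Of 12 transcription factors of epithelial-mesenchymal transition, 10 were tested, and 2, TWIST1 and TWIST2, were higher in BT-549 than in both lines (8.51% of all genes tested). TWIST1 was at 82.5, 93.1 and 51.7 CPM in BT-549, 14.7, 9.23 and 7.18 CPM in NCI-H1395 and 0 CPM in AGS, and at 0 CPM in MDA-MB-231. Every BT-549 library lay above every other, with a log2 fold change of 2.92 ± 0.28 against NCI-H1395 (edgeR adjusted p = 1.37e-05) and a level at least 1262-fold higher than in AGS (adjusted p = 3.28e-08). TWIST2 was at 4.69, 5.66 and 5.54 CPM in BT-549 and 1.87, 1.86 and 1.48 CPM in NCI-H1395, with no read in AGS or MDA-MB-231. ZEB1 was at 104, 93.1 and 116 CPM in BT-549, 66.9, 75.8 and 86.5 CPM in NCI-H1395 and 1.2, 1.78 and 1.43 CPM in AGS. Its log2 fold change against NCI-H1395 was 0.45 ± 0.16 (edgeR adjusted p = 0.0331), and 0.21 with library totals (edgeR adjusted p = 0.322). SNAI1 was at 5.24, 4.58 and 5.08 CPM and SNAI2 at 0.599, 0.744 and 1.51 CPM in BT-549, and SNAI3, at 0.25, 0 and 0.0915 CPM, was called lower.

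Nearly all epithelial adhesion genes were lower in BT-549 than in AGS, and somewhat over 1 in 2 were lower than in NCI-H1395. Of 36 genes of epithelial adhesion and polarity, 35 were tested: 32 were lower than in AGS, 19 lower than in NCI-H1395, 18 lower than in both, and 2 higher than in both. Among all genes tested 24.1% were lower than in AGS, 23.1% lower than in NCI-H1395 and 11.7% lower than in both. With control siRNA alone, 17 of the 18 and both of the higher genes were at least 2-fold apart from both lines. EPCAM (ENSG00000119888.11; chromosome 2, 47345158 to 47387601), an adhesion molecule of simple epithelia, had no read in BT-549, 0.321, 0.561 and 0.475 CPM in NCI-H1395 and 405, 368 and 321 CPM in AGS, and was at least 7202-fold lower than in AGS (edgeR adjusted p = 8.87e-10). The E-cadherin gene CDH1 was at 0, 0.172 and 0.229 CPM in BT-549, 0, 0.129 and 0.712 CPM in NCI-H1395 and 40.1, 43 and 39.1 CPM in AGS. BT-549 and NCI-H1395 overlapped near 0 and were not told apart (log2 fold change -0.91 ± 0.97, edgeR adjusted p = 0.454), while AGS lay above both. Desmosomal genes differed in steps. PKP2 (plakophilin 2) was at 0, 0 and 0.137 CPM in BT-549, 6.31, 7.77 and 9.32 CPM in NCI-H1395 and 223, 254 and 285 CPM in AGS. DSC2 (desmocollin 2) was at 0.0998, 0.286 and 0.137 CPM in BT-549, 8.24, 9.66 and 14 CPM in NCI-H1395 and 109.6, 212 and 210.1 CPM in AGS, which is -5.94 ± 0.31 and -9.96 ± 0.31 on the log2 scale (edgeR adjusted p = 4.8e-08 and 5.54e-10). For both, NCI-H1395 lay between the other lines without overlap.

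LAMB3, a chain of the laminin that anchors epithelia to the basement membrane, was at 9.23, 7.09 and 3.29 CPM in BT-549 and 131, 159 and 170.4 CPM in NCI-H1395, so all BT-549 libraries lay far below all NCI-H1395 libraries. Its log2 fold change against NCI-H1395 was -4.61 ± 0.33 (edgeR adjusted p = 4.55e-07). The members higher in BT-549 were CDH3 and the claudin gene CLDN1, at 301, 365 and 418 CPM against 51.3, 42.8 and 93.5 CPM in NCI-H1395 and 61.2, 75.5 and 93.2 CPM in AGS. Of 17 keratins, 15 were tested, all 15 were lower than in AGS and 4 were lower than in both (24.1% and 11.7% of all genes tested). KRT8 was at 1.6, 2.92 and 4.3 CPM in BT-549, 166, 179.7 and 237 CPM in NCI-H1395 and 2056, 1279 and 2143 CPM in AGS, and its filament partner KRT18 was at 72.9, 94.6 and 72.7 CPM in BT-549, 584, 499.6 and 387 CPM in NCI-H1395 and 1862, 1371 and 1474 CPM in AGS. KRT19 was at 0.0499, 0 and 0 CPM in BT-549 and 0.267, 0.0431 and 0.237 CPM in NCI-H1395.

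Of 18 regulators of epithelial splicing and transcription, 16 were tested, 15 were lower than in AGS, 7 were lower than in both lines and none was higher than in both. Among all genes tested the shares were 24.1%, 11.7% and 8.51%. ESRP1, which directs epithelial splicing, was at 0, 0 and 0.137 CPM in BT-549, 0.642, 0.647 and 1.13 CPM in NCI-H1395 and 364, 523 and 332 CPM in AGS. FOXA1, a pioneer factor of luminal breast and gut epithelium, was at 0.15, 0.172 and 0.183 CPM in BT-549, 3.64, 2.29 and 2.61 CPM in NCI-H1395 and 34.1, 32 and 33.6 CPM in AGS, with log2 fold changes of -4.01 ± 0.35 and -7.57 ± 0.34 (edgeR adjusted p = 1.98e-06 and 3.46e-09). KLF5, a factor of proliferating epithelium, was at 4.04, 4.18 and 3.39 CPM in BT-549, 15.1, 18.1 and 21.2 CPM in NCI-H1395 and 612, 471 and 479.6 CPM in AGS (-2.23 ± 0.20 and -7.07 ± 0.23, edgeR adjusted p = 2.16e-06 and 5.54e-10). ELF3, ESRP2, FOXA3 and TFCP2L1 were the other called genes. All 7 were at least 2-fold below both lines in the control siRNA libraries alone, and none exceeded 21.2 CPM in any NCI-H1395 library.

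The E-box letters that ZEB and SNAI proteins recognise were searched, after the values had been seen, in the promoters of these epithelial genes. The motif was CAGGTG, which reads CACCTG on the other strand, and it was looked for on both strands in the 250 bases before each start of RefSeq's promoter table (GRCh38.p14). Of all 35116 promoters, 17.5% held at least 1 match, as did 13.8% of 1540 promoters of genes higher in BT-549 and 20.5% of 2108 promoters of genes lower. Promoters were listed for 20 of the 36 genes of epithelial adhesion and polarity, and 16 of their 29 promoters (55.2%) held a match. CDH1 and EPCAM had no listed promoter and were not searched. Among the 8 listed adhesion genes called lower it was 6 of 13 promoters (46.2%), below the share of the whole list. Among the regulators of epithelial splicing and transcription it was 4 of 14 (28.6%), and 3 of 6 (50%) for the 5 listed regulators called lower. Of 16 promoters of 15 fibrillar collagen and matrix genes, 0 held one. A match is a description of the letters and not a bound site. Below, for the 9 epithelial genes that were lower than in both lines and held a match, the match nearest the start is in capitals within up to 12 bases on either side, 5′ to 3′ on the gene's strand.
ELF3 (an epithelial ETS factor, chr1:202010455-202010484, plus strand): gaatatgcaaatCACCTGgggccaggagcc
FOXA1 (a pioneer factor, chr14:37595354-37595383, minus strand): gcggccgccttgCAGGTGcacctcgggctt
TFCP2L1 (a grainyhead family factor, chr2:121285298-121285327, minus strand): gcgggagtcagcCAGGTGcggctgccgcgg
TJP3 (a tight junction scaffold, chr19:3721718-3721736, plus strand): gaggaagaggggCAGGTGc
SPINT1 (a membrane protease inhibitor, chr15:40844439-40844468, plus strand): tcccgggctgatCAGGTGtgtctcctcctc
CDS1 (a lipid enzyme of epithelia, chr4:84583088-84583117, plus strand): cgtggagacgcgCACCTGgcaaccggaggc
DSC2 (desmocollin 2, chr18:31102560-31102589, minus strand): tcaactttctgtCAGGTGggcctcaggcag
DSG2 (desmoglein 2, chr18:31498049-31498078, plus strand): tcgcggcggccaCACCTGgagccgcgcctt
LAMB3 (a laminin chain, chr1:209652626-209652655, minus strand): agcccccacaggCAGGTGggcattgtggag

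Breast markers were mixed. Of 20 luminal and hormone receptor genes, 14 were tested, 4 were higher and 5 lower (8.51% and 11.7% of all genes tested). PRLR, the prolactin receptor, was at 109.6, 64.5 and 105 CPM in BT-549, 1.02, 0.518 and 2.55 CPM in NCI-H1395, 0.0602, 0 and 0 CPM in AGS and 3.59, 3.43 and 3.48 CPM in MDA-MB-231. GATA3, the transcription factor of luminal cells, was at 26.1, 34.1 and 39.5 CPM against 8.08, 8.46 and 7.3 CPM in NCI-H1395 (log2 fold change 2.05 ± 0.24, edgeR adjusted p = 6.07e-05), with no read in AGS. CA12, a carbonic anhydrase, was called higher too, at 1.1, 0.629 and 0.869 CPM. ESR1, ERBB3, FOXA1, AGR2 and TFF1 were lower. All 9 were at least 2-fold apart from both lines in the control siRNA libraries alone. So the prolactin receptor and a lineage factor of luminal cells were higher in a line in which ESR1 and FOXA1 were near 0.

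Of 18 basal and myoepithelial genes, 13 were tested, with CDH3, OXTR, ID4 and CAV1 higher and LAMA3, ITGB4 and ITGA6 lower (8.51% and 11.7% of all genes tested). All 7 were at least 2-fold apart from both lines in the control siRNA libraries alone. OXTR, the oxytocin receptor of myoepithelial cells, was at 70.8, 87 and 82.1 CPM in BT-549, 1.76, 1.51 and 2.25 CPM in NCI-H1395, 1.08, 1.6 and 1.49 CPM in AGS and 3.65, 2.97 and 1.97 CPM in MDA-MB-231. Its log2 fold changes were 5.44 ± 0.23 and 5.84 ± 0.24 (edgeR adjusted p = 1.55e-08 and 1.92e-09). ID4, an inhibitor of basic helix-loop-helix factors, was at 20.4, 20.9 and 81.4 CPM, with ADAR siRNA library 2 apart from the other two. Among 12 markers used for stem-like breast cancer cells, 11 were tested, 2 were higher and 3 lower, beside the same shares of all genes tested. ALDH1A3, an aldehyde dehydrogenase, was at 25, 22.9 and 25.5 CPM in BT-549, 0.588, 0.173 and 0.653 CPM in NCI-H1395 and 0, 0.178 and 0.115 CPM in AGS (log2 fold changes 5.73 ± 0.47 and 7.87 ± 0.57, edgeR adjusted p = 1.1e-06 and 1.76e-07). CD44, a receptor for hyaluronan, was at 1092, 1126 and 1144 CPM in BT-549, and CD24, a surface marker often read together with it, at 368, 428 and 397 CPM. CD24 was at 0.909, 1.38 and 3.2 CPM in NCI-H1395 and 8.51, 19.1 and 19.4 CPM in MDA-MB-231, so BT-549 lay above both of these lines. The genes of this list called against both NCI-H1395 and AGS were ALDH1A3 and THY1, higher, and ALDH1A1, ITGA6 and NES, lower. Neither CD44 nor CD24 was called by the joint rule.

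The genes with the widest gaps between BT-549 and the other 6 libraries were mostly absent elsewhere. After COL1A2 and THY1, the higher genes with the widest gaps included SLFN11, ADAMTS2, ATP2B2, RAMP1, MEG3, TENM2, HTR1B, LDOC1, CDH10, ST8SIA2, FMN2 and DENND2A. Their separation from the 6 others, in the control libraries too, is what they were chosen by. SLFN11, a nuclease-like protein that blocks stressed replication forks, was at 131, 151 and 114 CPM in BT-549, with no read in the 6 other libraries and 0.174, 0.457 and 0.197 CPM in MDA-MB-231. It was at least 2560.3-fold higher than NCI-H1395 and at least 2222-fold higher than AGS (edgeR adjusted p = 1.25e-07 and 4.65e-08). Its neighbours SLFN12, SLFN13 and SLFN12L on chromosome 17 formed a run of 4 adjacent genes with it, all called higher. MEG3, an imprinted long noncoding RNA, was at 88.2, 119 and 195 CPM and at most 0.0593 CPM in NCI-H1395, with no read in AGS and MDA-MB-231. RAMP1, a partner of the calcitonin receptor-like receptor, was at 89.3, 93.1 and 149 CPM, ATP2B2, a calcium pump of the plasma membrane, at 108, 108 and 106 CPM, and HTR1B, a serotonin receptor, at 66, 84.3 and 98.4 CPM. Several of this set are known from neurons: TENM2 (teneurin 2) at 178, 222 and 467 CPM, CDH10 (a type II cadherin) at 78.4, 81 and 192 CPM, FMN2 (an actin-nucleating formin) at 98.5, 124 and 117 CPM and ST8SIA2, the enzyme that makes polysialic acid, at 62.4, 59.6 and 87.5 CPM. Of 21 neuroendocrine and neural markers, 10 were tested and 1 was higher and 0 lower (8.51% and 11.7% of all genes tested). This was SYP, a synaptic vesicle protein, at 13.5, 15.7 and 17 CPM against 0.71 to 3.8 CPM.

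The lower genes with the widest gaps were BEX3, PASD1, TGFA, PLEK2, KIF21A, ANKRD1, EIF2D, TENM3, S100A16, HOXB9, GDA, MGLL, UGT8, CCDC9B and APOBEC3C. BEX3, an X-linked adaptor of neurotrophin signalling, was at 0.0499, 0.0572 and 0.0915 CPM in BT-549, 125, 108 and 113 CPM in NCI-H1395 and 85.5, 68.3 and 109 CPM in AGS (log2 fold changes -10.61 ± 0.34 and -10.21 ± 0.34, edgeR adjusted p = 3.06e-09 and 5.54e-10). ANKRD1, a target of the Hippo pathway factor YAP, was at 0, 0 and 0.0457 CPM, against 71.6, 54.6 and 32.2 CPM in NCI-H1395, 407, 168 and 311 CPM in AGS and 1234, 649 and 800.3 CPM in MDA-MB-231. CCN1 and CCN2, other YAP targets, went the other way: CCN1 was at 567, 707 and 778 CPM in BT-549 against 98.7 to 239 CPM in the 6 others, and CCN2 at 309, 332 and 755 CPM against 52.6 to 166 CPM. KIF21A, a microtubule motor, was at 0.349, 0.172 and 0.183 CPM against 70.1 to 169 CPM, MGLL, which hydrolyses monoacylglycerols, at 0, 0.343 and 0.0457 CPM against 43.2 to 71.5 CPM, and S100A16, a calcium-binding protein, at 0.0499, 0 and 0.0915 CPM against 24.9 to 394 CPM. TENM3 (teneurin 3) was at 0, 0.114 and 0 CPM against 26.9 to 318 CPM, the reverse of its relative TENM2. APOBEC3C, a cytidine deaminase, was at 0.299, 0 and 0.137 CPM against 21.5 to 93.5 CPM in the 6 others. It was the single gene called of 11 tested RNA editing enzymes and partners (8.51% of all genes tested were higher and 11.7% lower).

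EIF2D (ENSG00000143486.16; chromosome 1, 206571292 to 206612465), a translation factor that releases and delivers initiator tRNA, had no read in any BT-549 library. It was at 36.6, 41.8 and 40.9 CPM in NCI-H1395, 31.3, 35.9 and 48.9 CPM in AGS and 65.8, 59 and 68.9 CPM in MDA-MB-231, so BT-549 was at least 789-fold lower than NCI-H1395 and at least 769-fold lower than AGS (edgeR adjusted p = 3.68e-08 and 8.86e-09). Its protein-coding neighbours with tested levels were not all low. DYRK3, the next gene on one side, was higher in BT-549 than in both lines (108, 102 and 87.1 CPM against 5.96 to 28.9 CPM). MAPKAPK2 was at 86, 79.3 and 87 CPM, above NCI-H1395 (63.2, 65.5 and 65.3 CPM) and below AGS (205.8, 145.5 and 161.6 CPM), and was not called. RASSF5, which overlaps EIF2D on the other strand, was called lower, at 0.699, 0.629 and 1.01 CPM against 2.96 to 5.87 CPM. IKBKE and SRGAP2 beyond it were not called. The log2 fold changes against NCI-H1395 and AGS were -0.534 and -1.358 for IKBKE and 0.949 and -0.313 for SRGAP2. The labels do not say whether counting used the strand, so reads from the overlap cannot be told apart.

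Secreted factors differed in both directions. Of 42 growth factors and cytokines, 33 were tested, 13 were higher than in both lines and 7 lower (8.51% and 11.7% of all genes tested). CSF1, the growth factor of macrophages, was at 787, 720.2 and 1416 CPM in BT-549, 5.99, 11.5 and 13.8 CPM in NCI-H1395 and 27.1, 27.1 and 34.6 CPM in AGS. CXCL1, a chemokine for neutrophils, was at 691, 520.0 and 646 CPM in BT-549, 2.19, 0.949 and 2.43 CPM in NCI-H1395 and 13, 12.4 and 7.44 CPM in AGS. FGF2, a basic fibroblast growth factor, was at 708, 682 and 874 CPM in BT-549, 119, 117 and 104 CPM in NCI-H1395 and 0.12, 0.237 and 0.0573 CPM in AGS. In each case all BT-549 libraries exceeded all others, and against NCI-H1395 the log2 fold changes were 6.59 ± 0.32, 8.41 ± 0.35 and 2.73 ± 0.18 (edgeR adjusted p = 3.16e-08, 1.36e-08 and 2.63e-07). CCL2, which attracts monocytes, was at 40.1, 23.8 and 38.4 CPM and at most 0.178 CPM in the 6 others, and IL6 at 8.43, 7.78 and 3.71 CPM and at most 0.229 CPM. NRG1, FGF5, INHBA, BMP4, WNT5A, WNT5B, CCN1 and CCN2 were the other genes higher. With control siRNA alone, 12 of the 13 higher and 6 of the 7 lower genes were at least 2-fold apart from both lines.

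The EGF receptor ligand TGFA (ENSG00000163235.16; chromosome 2, 70447284 to 70554193) had no read in BT-549. It was at 99.7, 69.6 and 115 CPM in NCI-H1395, 69.8, 67.6 and 62.4 CPM in AGS and 77.7, 65.1 and 63 CPM in MDA-MB-231, which put BT-549 at least 1824-fold and at least 1316-fold lower (edgeR adjusted p = 2.95e-08 and 7.44e-09). The related ligand BTC was at 0 in BT-549 too, and HBEGF was at 14.2, 8.87 and 11.7 CPM against 20.9 to 116 CPM. The receptor itself, EGFR, was at 350.3, 419 and 212 CPM in BT-549, 112, 95.6 and 42.2 CPM in NCI-H1395 and 676, 535 and 260.1 CPM in AGS. It was above NCI-H1395 (log2 fold change 2.02 ± 0.37, edgeR adjusted p = 0.000887) and overlapped AGS (-0.53 ± 0.36, adjusted p = 0.221). PDGFA, PDGFB, IL11 and BMP2 were the other factors lower in BT-549.

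Of 32 growth factor receptors, 27 were tested, 2 were higher and 6 lower (8.51% and 11.7% of all genes tested). The higher ones were DDR2 and NTRK3, a neurotrophin receptor at 3.64, 4.92 and 12.3 CPM in BT-549 with no read in the other 9 siRNA libraries, MDA-MB-231 included. The lower ones included ERBB3, FGFR3, TYRO3, MERTK and DDR1. All 8 were at least 2-fold apart from both lines in the control siRNA libraries alone. MERTK, a receptor used in the uptake of apoptotic cells, was at 1.4, 1.03 and 2.24 CPM, against 50.3, 58.4 and 56.3 CPM in NCI-H1395 and 44.2, 52 and 46.2 CPM in AGS (log2 fold changes -5.12 ± 0.26 and -4.91 ± 0.26, edgeR adjusted p = 3.87e-08 and 1.29e-08). The collagen receptors thus differed in opposite directions, DDR2 being higher and DDR1, at 10.5, 13.7 and 25.5 CPM against 46.2 to 204 CPM, lower. Of 20 integrin genes, 17 were tested, 1 was higher (ITGA10) and 6 lower, beside the same shares of all genes tested. ITGA2, the alpha subunit of a collagen-binding integrin, was at 0.399, 0.801 and 0.686 CPM in BT-549, 109, 48.2 and 240.1 CPM in NCI-H1395 and 2424, 1382 and 1101 CPM in AGS. ITGA1, the alpha subunit of another collagen-binding integrin, was at 0.299, 0.687 and 0.686 CPM in BT-549, 20.3, 12 and 19.6 CPM in NCI-H1395 and 3.49, 4.08 and 3.61 CPM in AGS. ITGA2 and ITGA1 were both below 1 CPM in each BT-549 library, with log2 fold changes against NCI-H1395 of -7.72 ± 0.69 and -4.95 ± 0.39 (edgeR adjusted p = 5.36e-06 and 9.4e-07). In the control siRNA libraries alone, 4 of the 6 lower integrins were at least 2-fold below both lines, and ITGA10 was not 2-fold above both.

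The retinoblastoma axis, in which p16 restrains CDK4 and CDK6 and thereby keeps RB1 bound to E2F factors, differed at several steps. Of 24 genes of the axis and tumour suppressors, all were tested, 7 were higher and 4 lower (8.51% and 11.7% of all genes tested). In the control siRNA libraries alone 6 and 4 of these were at least 2-fold apart from both lines. CDKN2A (ENSG00000147889.18; chromosome 9, 21967752 to 21995301), which encodes p16 and, from another reading frame, ARF, was at 542, 636 and 649 CPM in BT-549, 84, 113 and 88.3 CPM in NCI-H1395 and 0 CPM in AGS, with no read in MDA-MB-231 either. BT-549 lay above NCI-H1395 (2.68 ± 0.17 on the log2 scale, edgeR adjusted p = 6.76e-07). RB1 (ENSG00000139687.16; chromosome 13, 48303744 to 48599436) was at 32, 36.9 and 34.4 CPM in BT-549, 92.2, 85.2 and 83.4 CPM in NCI-H1395, 115, 182 and 121 CPM in AGS and 96, 124 and 119 CPM in MDA-MB-231. BT-549 was lowest in every library, with log2 fold changes of -1.34 ± 0.19 and -2.01 ± 0.19 (edgeR adjusted p = 7.61e-05 and 1.76e-06). Counts per gene do not show which exons the reads cover. CCND1 (cyclin D1) was at 147, 162 and 78.3 CPM in BT-549, 639, 475 and 443 CPM in NCI-H1395 and 3256, 1199.7 and 1087 CPM in AGS, and its kinase CDK6 at 86.6, 120.1 and 76.6 CPM in BT-549, 486, 471 and 361 CPM in NCI-H1395 and 478, 724 and 325 CPM in AGS. Both were lower, with log2 fold changes against NCI-H1395 of -1.98 ± 0.30 and -2.22 ± 0.28 (edgeR adjusted p = 0.000163 and 4.28e-05).

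Among the genes called higher, E2F1, a transcription factor of S phase genes, was at 154, 179 and 199 CPM in BT-549, 66.2, 63.1 and 52.7 CPM in NCI-H1395 and 72.2, 39.4 and 70.4 CPM in AGS. E2F2, the cyclin gene CCNE2 and the RB1 relative RBL1 were called higher too. MTAP, next to CDKN2A, was higher as well.

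**Figure D3:**
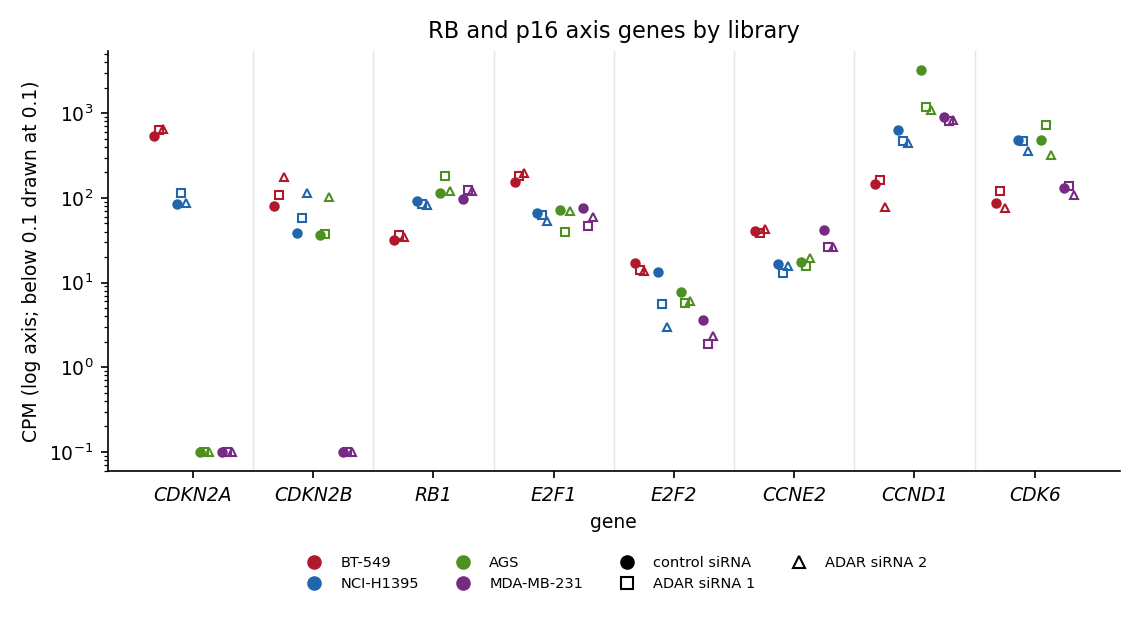
Level in CPM (log axis, values below 0.1 drawn at 0.1) of 8 genes of the RB and p16 axis in each siRNA library of 4 lines, with filled circles for control siRNA and open symbols for ADAR siRNA. In BT-549 CDKN2A lies above every other library and RB1 and CCND1 below every other library, whatever the siRNA.

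Of 25 mitosis and proliferation genes, 7 were higher in BT-549 than in both lines and none lower, with medians of 0.89 and 1.34. Among all genes tested 8.51% were higher and 11.7% lower, with medians of -0.06 and 0.00. TOP2A, the topoisomerase of dividing cells, was at 1205, 1095 and 1079 CPM in BT-549, 428, 235 and 218 CPM in NCI-H1395 and 493, 427 and 242 CPM in AGS. KIF20A, a kinesin of cytokinesis, was at 308, 284 and 305 CPM in BT-549, 143, 67.1 and 61.8 CPM in NCI-H1395 and 30.9, 21.1 and 17.2 CPM in AGS, and MYBL2, a transcription factor of the cell cycle, at 602, 699 and 601 CPM in BT-549, 212, 183 and 140.0 CPM in NCI-H1395 and 287, 185 and 276 CPM in AGS. In NCI-H1395 the control library was the highest of the 3 for each of these genes, so the difference was smaller among control libraries. For TOP2A it was 2.01 ± 0.22 over all libraries (edgeR adjusted p = 1.37e-05) and 1.49 in the control libraries alone. Among the control libraries 5 of the 7 genes were at least 2-fold above both lines. The mitotic genes CCNB1, AURKA, AURKB and MKI67 were the others called higher, and the count of 7 ranged from 6 to 10 over the alternatives.

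Interferon-stimulated genes were called in both directions. Of 37, 35 were tested, with MX1, IFI44L and SAMD9L higher (3 of 35, 8.57%) and IFIT2, IFITM2, OASL, IRF7 and IFIH1 lower (5 of 35, 14.3%), shares near those of all genes tested. MX1, an antiviral GTPase, was at 213, 208 and 125 CPM in BT-549, 5.29, 6.86 and 2.43 CPM in NCI-H1395 and 5.72, 8.17 and 9.33 CPM in AGS (log2 fold changes 5.21 ± 0.38 and 4.55 ± 0.37, edgeR adjusted p = 7.74e-07 and 7.69e-07). IFIT2, another antiviral effector, was at 35, 38.6 and 19.9 CPM in BT-549, 335, 498 and 130.1 CPM in NCI-H1395 and 194, 248 and 198 CPM in AGS. Against NCI-H1395 alone 18 of the 35 were higher and 7 lower (15.2% and 23.1% of all genes tested). ADAR, the target of the siRNA, was at 788, 102 and 92.4 CPM in BT-549, 393, 42 and 46.2 CPM in NCI-H1395 and 779, 137 and 185 CPM in AGS. Its control level in BT-549 was thus near that of AGS and above that of NCI-H1395, with 1 library each and no test.

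Of 19 antigen presentation genes, 16 were tested, with HLA-C, PSMB9 and CIITA higher and HLA-B and HLA-F lower (8.51% and 11.7% of all genes tested). HLA-C was at 289, 299 and 262 CPM in BT-549, 14.9, 16.7 and 17.1 CPM in NCI-H1395 and 0.842, 0 and 0.286 CPM in AGS, whereas HLA-B was at 39.3, 28.3 and 24.3 CPM in BT-549, 138, 151 and 138 CPM in NCI-H1395 and 164, 114 and 148 CPM in AGS. These genes are highly polymorphic and alike, and the labels do not say how reads that fit several of them were counted, so their values are uncertain.

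Of 24 targets of NRF2 and enzymes of xenobiotic metabolism, 20 were tested, 8 were higher and 1, ALDH3A1, was lower (8.51% and 11.7% of all genes tested). In the control siRNA libraries alone 7 of the 8 were at least 2-fold above both lines. NQO1, a quinone reductase, was at 1111, 1255 and 1160.3 CPM in BT-549, 180.3, 181 and 178 CPM in NCI-H1395 and 402, 396 and 276 CPM in AGS, with log2 fold changes of 2.71 ± 0.18 and 1.72 ± 0.17 (edgeR adjusted p = 1.92e-07 and 2.74e-06). AKR1C1 and AKR1C3, aldo-keto reductases that act on steroids, were at 22.8, 12.9 and 23.6 CPM and 17.1, 16 and 37 CPM in BT-549 and at most 2.19 and 1.95 CPM in the 6 other libraries. Their sequences are close to those of relatives in the same cluster, so the split between them is uncertain. GCLM, AKR1B1, ME1 and CYP1B1 were called higher too. NNMT, which methylates nicotinamide, was at 81.6, 107 and 104 CPM against 0.0602 to 0.415 CPM (log2 fold changes 8.01 ± 0.31 and 8.93 ± 0.34, edgeR adjusted p = 8.6e-09 and 1.16e-09), and asparagine synthetase (ASNS) was lower, at 0.649, 0.858 and 2.61 CPM against 4.01 to 41.9 CPM.

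Of 22 glycolysis and hypoxia genes, 3 were higher (ENO1, HK1 and ADM) and 2 lower, shares near those of all genes tested (8.51% and 11.7%), and both of the lower genes were glucose transporters. SLC2A3 was at 0.499, 0.687 and 0.0457 CPM in BT-549, 55.8, 85.2 and 23.4 CPM in NCI-H1395 and 1158, 852 and 487 CPM in AGS, and SLC2A1 at 23.6, 33.9 and 15.7 CPM in BT-549, 82, 55 and 34.8 CPM in NCI-H1395 and 3898, 1834 and 2245 CPM in AGS. The log2 fold changes against NCI-H1395 were -7.14 ± 0.67 and -1.15 ± 0.31 (edgeR adjusted p = 7.54e-06 and 0.00785). Among 20 housekeeping genes, 1 was higher and 0 lower, beside the same shares of all genes tested. This was TFRC, the transferrin receptor, at 1065, 1202 and 836 CPM against 174 to 253 CPM in the 6 others.

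HOX genes, which mark position along the body axis, set BT-549 apart from each line in a different way. Of the 8 HOXA and 4 HOXD genes tested, all were lower than in NCI-H1395, and 3 HOXA genes and 1 HOXD gene were higher than in AGS (23.1% and 21.8% of all genes tested). The summed HOXA level was 1.69 to 4.04 CPM in BT-549, 34 to 43.3 CPM in NCI-H1395 and 0 to 0.34 CPM in AGS. For HOXD these sums were 0.183 to 0.449, 11.5 to 20.1 and 0 to 0.172 CPM. With such sums most of these genes could pass the filter through NCI-H1395, so being lower than in it was largely set in advance. The calls against AGS rest on low values in both lines. HOXC11 and HOXC12 were higher in BT-549 than in both. HOXC11 was at 19.4, 18.5 and 19.6 CPM in BT-549, 0.0535, 0 and 0.178 CPM in NCI-H1395 and 0.12, 0.296 and 0.0573 CPM in AGS (log2 fold changes 7.99 ± 0.59 and 6.88 ± 0.54, edgeR adjusted p = 5.12e-07 and 3.56e-07), while HOXC4, at the other end of the cluster, was lower, at 0.749, 1.09 and 1.1 CPM against 2.86 to 13 CPM. HOXB9 was at 0.349, 0.229 and 0.183 CPM, against 49.6, 86.6 and 79.3 CPM in NCI-H1395 and 74.2, 92.2 and 110.3 CPM in AGS, although HOXB2 of the same cluster was at 72.1, 75.8 and 75 CPM in BT-549. HOXA3, called lower, was at 3.96 CPM or less in every library, and its call against AGS (edgeR adjusted p = 0.0457) was lost in 8 alternatives. Of 28 cancer-testis antigens, normally limited to germ cells, 16 were tested and 14 were lower than in NCI-H1395 (MAGEA4 was at 0 in BT-549 and 496, 349 and 448 CPM in NCI-H1395), 2 were lower than in AGS, and MAGEA1 was lower than in both. Among all genes tested these shares were 23.1%, 24.1% and 11.7%. The summed level of the antigens was 744 to 913 CPM in NCI-H1395, 22.1 to 25.2 CPM in BT-549 and 5.35 to 7.16 CPM in AGS. Most tested antigens could thus pass the filter through NCI-H1395, so the count lower than in that line was largely set in advance. It describes NCI-H1395 as much as BT-549.

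**Figure D4:**
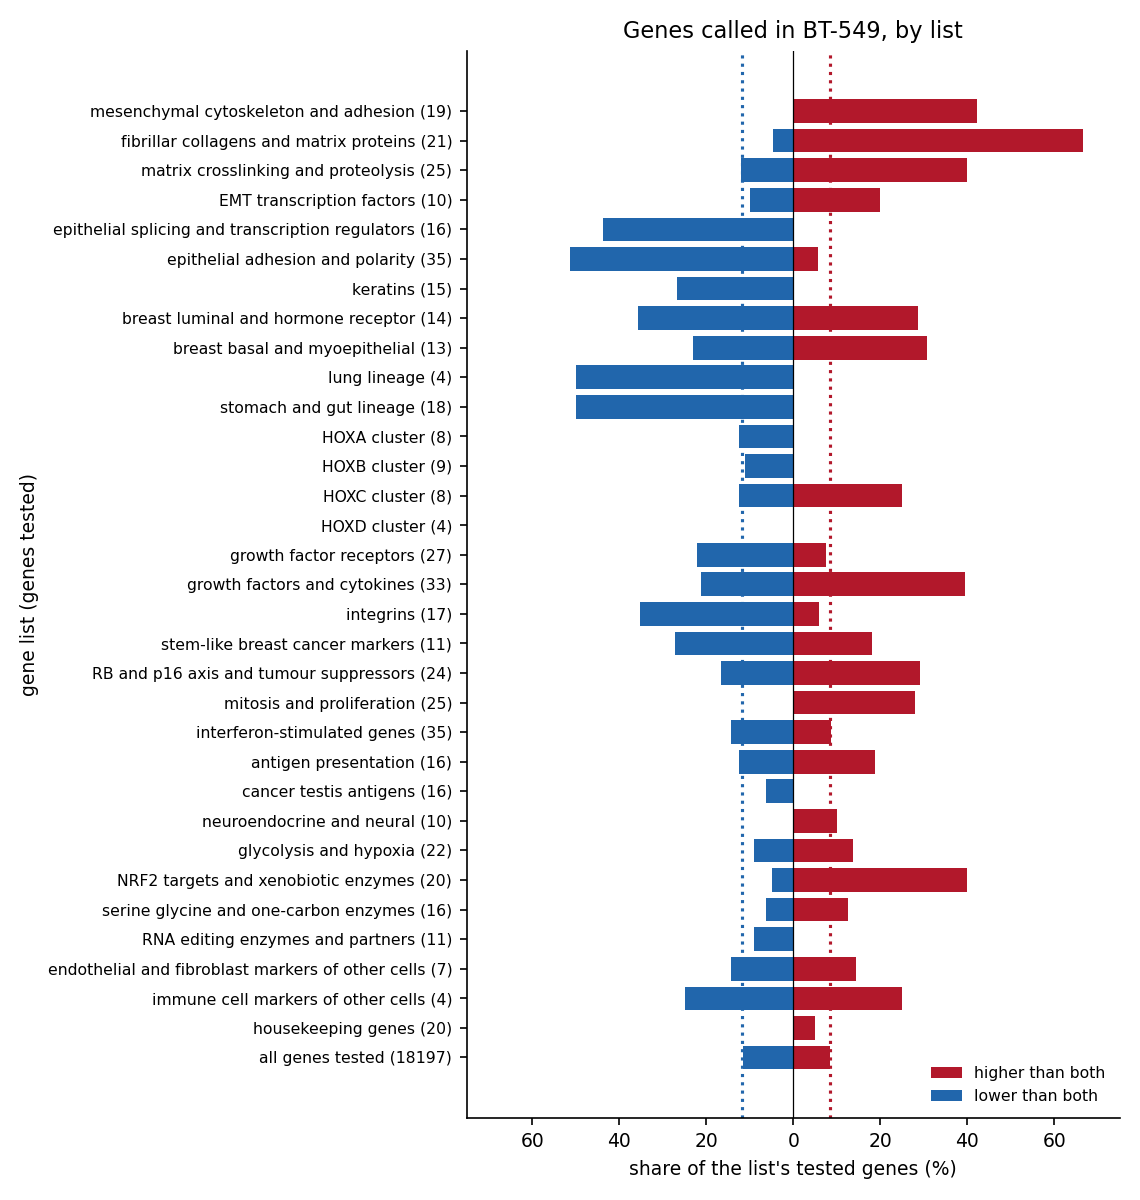
Share of the tested genes of each gene list that were higher (red, to the right) or lower (blue, to the left) in BT-549 than in both NCI-H1395 and AGS, with the number of genes tested in brackets and dotted lines at the shares of all genes tested (8.51% and 11.7%). The matrix list has 14 of 21 genes higher and the epithelial adhesion list 18 of 35 lower.

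Genes lower in BT-549 were crowded at the start of chromosome 4. Over all chromosomes 11.5% of 13741 protein-coding genes tested were lower and 8.94% higher, and on chromosome 4 137 of 498 (27.5%) were lower. The split at 50 Mb was chosen after these values were seen. In the first 50 Mb, 92 of 162 protein-coding genes (56.8%) were lower and 2 higher, with median log2 differences of -2.08 against NCI-H1395 and -1.55 against AGS. On the rest of the chromosome 45 of 336 (13.4%) were lower, with medians of -0.05 and -0.43. In the control siRNA libraries alone the medians of the first 50 Mb were -1.92 and -1.42. NCI-H1395 against AGS had a median of 0.41 over the same genes, and MDA-MB-231 had medians of -0.04 against NCI-H1395 and 0.19 against AGS, so the low values were found in BT-549 alone among the 4 lines. Under the 19 alternatives run on these genes, 88 to 96 were lower.

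The longest run of neighbouring protein-coding genes called lower held 14 genes, at chromosome 4, 2269582 to 3532446, from ZFYVE28 to LRPAP1. ADD1, which encodes a spectrin-binding adducin, was at 44, 42.2 and 50 CPM in BT-549, 221 to 262 CPM in NCI-H1395, 203, 163 and 210.0 CPM in AGS and 353, 349.5 and 351 CPM in MDA-MB-231. HTT, which encodes huntingtin, was at 37.9, 50.8 and 55.1 CPM in BT-549, 194, 204 and 169 CPM in NCI-H1395, 172, 199.9 and 226 CPM in AGS and 149, 169 and 144 CPM in MDA-MB-231. For both, all 3 BT-549 libraries lay below all 9 others. NOP14 (ENSG00000087269.16; chromosome 4, 2937933 to 2963406), a nucleolar protein named in the titles of 2 further MDA-MB-231 libraries of the series, lies in this run. It was at 29, 30.8 and 19.9 CPM in BT-549, 123, 144 and 78.1 CPM in NCI-H1395, 68.5, 66.3 and 54.5 CPM in AGS and 363, 300.4 and 334 CPM in the MDA-MB-231 siRNA libraries, and its log2 fold changes were -2.12 and -1.25. Further runs of 13 and 8 lower genes lay at 425815 to 1026898 and 6663396 to 7057952, among them GAK, a kinase of clathrin uncoating (33.7, 36.2 and 29.6 CPM against 133 to 219 CPM), and FGFRL1.

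Windows of 10 Mb with at least 20 genes were read the same way. Of 241 windows, 14 had both medians at or below -0.5 and 13 had both at or above 0.5. The 3 lowest windows, ranked by the weaker of their medians, all lay in the first 50 Mb of chromosome 4. The first 10 Mb had medians of -2.43 against NCI-H1395 and -1.80 against AGS (51 of 78 genes lower), and 30 to 40 Mb had -1.34 and -1.98. The next were at 20 to 30 Mb of chromosome 18 and 30 to 40 Mb of chromosome 12. On chromosome X 99 of 473 genes (20.9%) were higher, and on chromosome 13 40 of 229 (17.5%) were higher, although RB1 on that chromosome was lower.

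**Figure D5:**
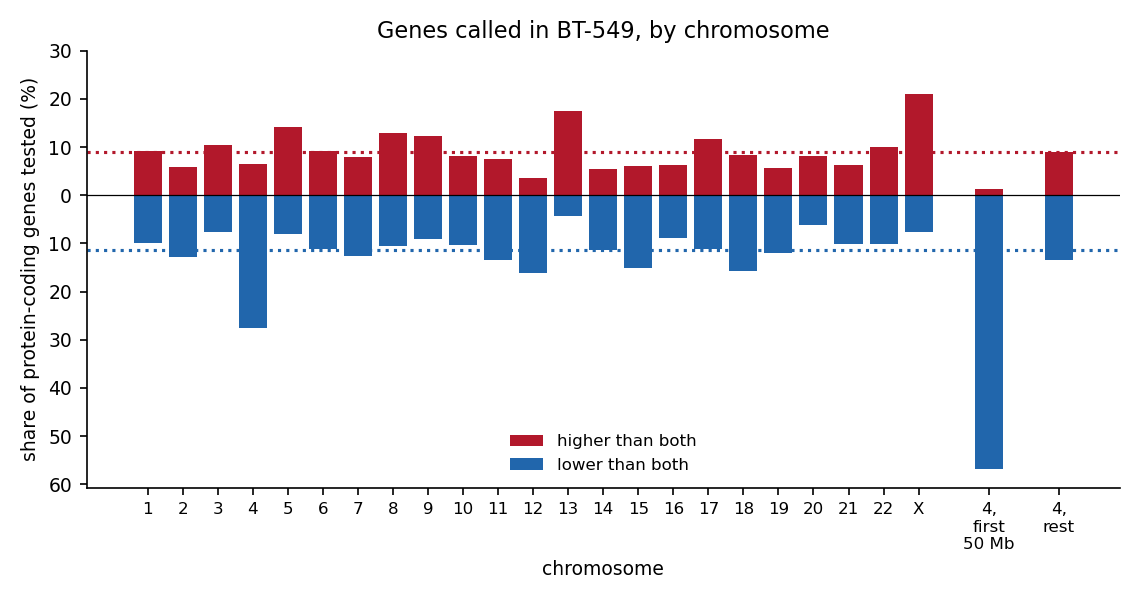
Share of the protein-coding genes tested on each chromosome that were higher (red, upward) or lower (blue, downward) in BT-549 than in both lines, with dotted lines at the shares of all protein-coding genes tested (8.94% and 11.5%). Chromosome 4 has 27.5% lower, and the last bars give its first 50 Mb (56.8%) and its rest (13.4%).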

How the data were processed

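The deposited table holds the authors' whole-number read counts per gene. The submitters' processing notes name featureCounts 2.0.6, STAR 2.7.11a, fastp 0.23.4 and the build hg38. The strand setting and annotation release are not stated in the labels. Genes that overlap or have near-identical copies therefore have uncertain counts. Of 62702 lines, 3 were broken and were left out, and gene types came from GENCODE 29. The 9 libraries (14858945 to 23378934 counts) were fitted with edgeR 4.0.16 (R 4.3.3): a filter on low counts (minimum count 10), TMM scaling, cell line and treatment as terms, robust quasi-likelihood tests with 5 residual degrees of freedom, and Benjamini-Hochberg adjustment over 18197 genes. Values after ± are approximate standard errors, taken as the absolute log2 fold change over the square root of the quasi-likelihood F statistic. The p-values measure only the spread between libraries, which may be technical. Where a line's libraries held no read, the fold is a bound at 3 counts over the group. Intervals and bounds cover counting error only.

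Control-only values are log2 ratios with a prior count of 2. Listed genes often passed the filter through 1 line, so list counts are descriptions. On simulated counts for 17360 genes the joint rule recovered 99% of 4-fold and 21% of 2-fold changes, and called 0 unchanged genes. The simulation gave every gene the same spread between libraries, no siRNA effect and no other difference between lines. It therefore does not give the error rate of these data. Named genes were the 15 with the widest gap between BT-549 and the 6 other libraries in each direction (at least 20 CPM on the higher side), the 3 widest called members of each list, and a set of lineage and target genes; other named genes were chosen after their values were seen. The members and gene lists were chosen with earlier results of these data known. Alternatives were other scalings, filters, terms, sample sets, thresholds, DESeq2 1.42.0 and leaving out each library. The interaction test, the promoter search and the chromosome windows were added after seeing the data. Promoter sequences are RefSeq's (GRCh38.p14). Some genes are not reported here.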

Additional observations from a re-analysis of the deposited data

How the results depend on the processing

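The counts of genes higher (1549) and lower (2123) in BT-549 than in both lines stayed within 1.5 times under every alternative of scaling, filter, terms, samples and tool, and moved further with the fold threshold alone. With no minimum fold 2810 genes were higher and 2777 lower, and with a log2 fold change of at least 2 the counts were 675 and 1369. Library totals gave 1211 and 2437, DESeq2 1487 and 2168, and the ADAR siRNA libraries alone 1451 and 1885. Leaving out 1 library at a time gave 1497 to 1626 higher and 1900 to 2114 lower, 2662 to 2922 higher and 4019 to 4491 lower than NCI-H1395, and 3895 to 4126 higher and 4273 to 4686 lower than AGS. The siRNA library number as a replicate block gave 1573 and 2160. Same-numbered ADAR siRNA libraries deviated together (r = 0.470, 0.210 and 0.237 over 12020 genes for the 3 pairs of lines), but the labels state no pairing and only 2 numbers can be compared.

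Genes with a direction that turned were not called by the joint rule, apart from VWF, whose log2 ratio to NCI-H1395 was 0.68 in the control libraries alone. Over the leave-one-out fits CDH1 against NCI-H1395 ran from -1.50 to 0.82 (without NCI-H1395 ADAR siRNA replicate 2) and ERBB2 against AGS from -0.45 to 0.076 (without AGS ADAR siRNA replicate 2), and ADAR against AGS was 0.016 in the control libraries. HNF4A against NCI-H1395, at or near 0 counts in both, was 0.88 in the ADAR siRNA libraries alone and ran from -2.61 to 0.60 over the leave-one-out fits. The causes were not tested. Over all refits of the named genes, a call was lost 35 times and gained 3 times, with a gene counted once per alternative, for example for IFI44L against AGS with no filter (edgeR adjusted p = 0.0846) and ESR1 against AGS in the ADAR siRNA libraries alone (edgeR adjusted p = 0.0539). List counts moved by over 1.5 times where few members were called, for example glycolysis 1 to 4 higher, antigen presentation 3 to 6 higher, integrins 1 to 3 higher, and stomach and gut genes 6 to 10 lower (main count 9). Genes lowly expressed in every line cannot be compared at this depth.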

Other observations

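Outside the gene lists, the longest run of neighbouring protein-coding genes higher in BT-549 than in both lines held 7 genes on chromosome 16, from RPGRIP1L to GNAO1 (53598153 to 56357444, hg38). The run was picked after the values were seen. IRX5, a homeobox factor of the Iroquois family, had a mean of 38.6 CPM in BT-549, 4.26 CPM in NCI-H1395 and 3.21 CPM in AGS, with log2 fold changes of 3.20 and 3.61 (edgeR adjusted p = 1.62e-06 and 3.28e-07, n = 3 libraries per line). Its relative IRX3 had a mean of 29.9 CPM in BT-549 and 12.8 CPM in NCI-H1395, with no read in AGS, and a log2 fold change of 1.22 against NCI-H1395 (edgeR adjusted p = 0.00116). FTO, an RNA demethylase next to them, had means of 77.8, 28.1 and 32.9 CPM in BT-549, NCI-H1395 and AGS. MMP2, a gelatinase, had a mean of 37.7 CPM in BT-549, 8.26 CPM in NCI-H1395 and 0.138 CPM in AGS. All 7 were at least 2-fold above both lines in the control siRNA libraries alone.

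On chromosome 9, the adjacent genes GAS1 and DAPK1 were higher as well, in a run of 4. GAS1, a growth arrest gene, had a mean of 45.6 CPM in BT-549 and 0.0644 CPM in NCI-H1395, with no read in AGS. DAPK1, a death-associated kinase, had a mean of 111 CPM in BT-549 and 0.251 CPM in AGS, with no read in NCI-H1395. On chromosome 11, a run of 4 lower genes held PHLDA2 and CDKN1C, both imprinted. PHLDA2 had a mean of 3.22 CPM in BT-549, 16.4 CPM in NCI-H1395 and 16.1 CPM in AGS, with log2 fold changes of -2.35 and -2.30 (edgeR adjusted p = 1.14e-05 and 7.79e-06).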
